A study of Mus musculus with 18 samples.

Results

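The response of tolerized CD4+ T cells to phorbol myristate acetate (PMA) and a calcium ionophore, together called PI, was measured by comparing the 3 libraries of PI-treated tolerized cells (TPI) with the 3 libraries of untreated tolerized cells (T0), which are 6 of the 18 RNA-seq libraries of the study. The comparison was fixed by the treatment labels, and every gene with enough reads entered it. All mice were Tg4-H2u, male and female, and 6 to 12 weeks old, and nearly all of their CD4+ T cells carry 1 transgenic TCR that recognises a peptide of myelin basic protein. In both groups tolerance was induced under the skin with rising amounts of the high-affinity 4Y form of that peptide, in 7 doses for T0. The T0 cells were taken straight from mice that had received vehicle 2 h before, whereas the TPI cells were kept in culture for 2 h with 20 ng/ml PMA and 2 µM of the ionophore A23187. No tolerized cells cultured without PI were among the libraries, so PI and culture cannot be told apart in any value below. CD4+ T cells were enriched from spleen by removal of other cells. Further libraries used here came from naive cells of mice given vehicle (N0), from naive cells treated with PI (NPI), and from tolerized cells of mice injected with the peptide 2 h before harvest (TAg).

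PMA replaces diacylglycerol and so activates protein kinase C and the Ras pathway, while the ionophore lets calcium into the cell and activates calcineurin. Together they switch on the AP-1, NF-kB and NFAT factors that normally lie at the end of TCR and CD28 signaling, without engagement of the receptors at the membrane. Tolerized cells of this kind are known for weak signaling from the receptor, for high levels of inhibitory receptors and for making the anti-inflammatory cytokine encoded by Il10, so a stimulus that enters below the receptor asks what their genome can still express.

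The T0 libraries held 11198930 to 11453566 counted reads and the TPI libraries 16196386 to 24119489, and replicates of a group correlated across genes with r from 0.981 to 0.988 on a log2 scale. Of 37991 listed genes, 24647 had at least 1 read and 17240 had enough reads to be tested. Values for single genes are normalized counts, which are raw counts divided by the TMM-scaled library size, and they are given in the order of the replicate numbers. A gene was called at an adjusted p under 0.05 in edgeR's quasi-likelihood test, a fold change of at least 2 and a mean above 50 normalized counts in the higher group. Fold changes are log2 values, n = 3 libraries per group. Their standard error (SE) was calculated back from the test, as the size of the fold change over the square root of its F value. It is approximate, most of all in genes with few reads. The 3 TPI libraries and 2 of the T0 libraries held reads of Y-linked genes, while T0 replicate 3 held 30514 Xist reads and only 33 from Y-linked genes, so the groups differed in the sex of the mice. Without T0 replicate 3, 2313 genes were called higher and 2388 lower, and none of the genes called with all libraries changed direction. X- and Y-linked genes, 132 of the called ones, are left out of the ranked genes below.

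Expression differed widely between TPI and T0. The test called 2297 genes higher (13.3% of those tested) and 2368 lower (13.7%) in TPI, or 27.1% in all, and in 72.5% of all tested genes the 3 TPI values lay entirely outside the 3 T0 values. On the adjusted p alone, 5509 genes were higher (32.0%) and 6259 lower (36.3%). The size of the changes was uneven. A log2 fold change of at least 3 was reached by 422 genes upward and by 83 downward, and one of at least 5 by 110 upward and 6 downward. The median was 1.73 among the genes called higher and -1.52 among those called lower, against -0.10 over all tested genes. Most of the higher genes were already expressed before treatment, since 1786 of them had a T0 mean of at least 50 normalized counts, while 29 had no more than 3 reads in any T0 library.

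**Figure D1:**
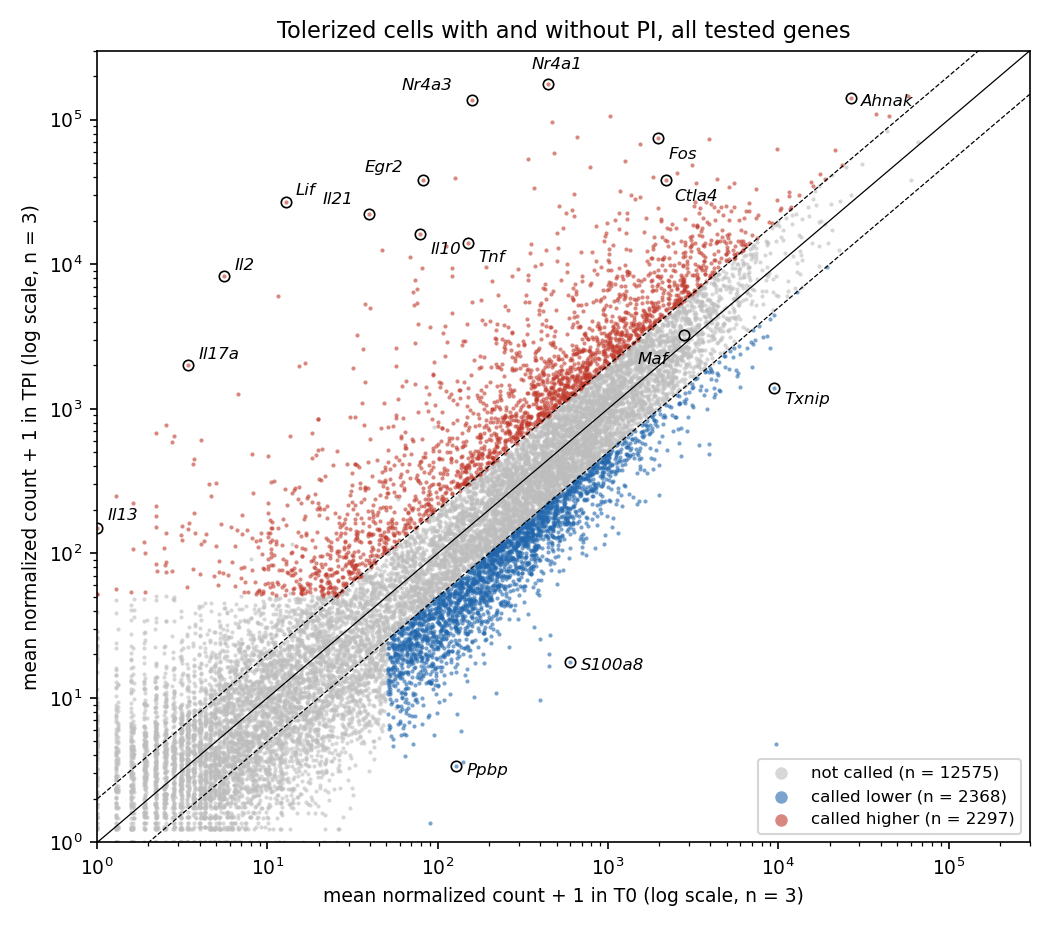
Mean normalized count plus 1 of each tested gene in T0 (x axis, log scale) and TPI (y axis, log scale), 3 libraries per group, with genes called higher in red, called lower in blue and not called in grey. The red points reach far further from the diagonal than the blue ones, with Lif, Il2 and Nr4a3 among the farthest, while Maf lies near the diagonal. The dashed lines mark a 2-fold difference. The single blue point at the lower right is Xist, with nearly all of its T0 reads in replicate 3.

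The composition of the libraries moved with these changes. Genes called higher held 21.5% ± 0.313 of the reads in T0 (SD, n = 3) and 53.6% ± 0.452 in TPI, so more than every other read of a TPI library came from 2297 genes. Genes called lower went from 11.5% ± 0.114 to 2.39% ± 0.0871. Nr4a1 alone took 0.00433% ± 0.00107 of reads in T0 and 0.989% ± 0.0339 in TPI. Since this comparison chose those genes, the shares are a description and not a test, and the same genes held 46.8% ± 0.987 of the reads in NPI and 34.8% ± 0.64 in TAg. The split between higher and lower calls depends on the scaling for the same reason: when libraries were scaled by their totals instead of by TMM, the median over all genes moved from -0.10 to -0.92, and 1025 genes were called higher and 5278 lower. All 1025 were among the 2297, and none of the 4665 called genes changed direction. The counts of genes below are relative to the TMM scale, and total RNA per cell was not measured.

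**Figure D2:**
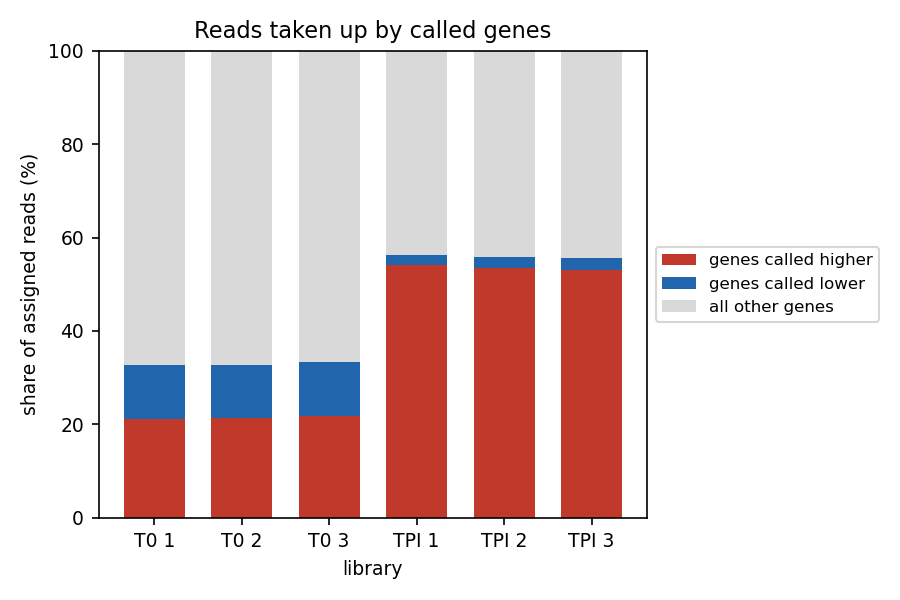
Share of all counted reads (percent, y axis) in genes called higher (red), in genes called lower (blue) and in other genes (grey), for each T0 and TPI library. The 3 TPI libraries put between 53.2% and 54.1% of their reads in the genes called higher and the 3 T0 libraries between 21.2% and 21.8%.

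The steepest rises were in genes for secreted factors, nuclear receptors and zinc finger factors, several of them with hardly any reads in T0. Lif, which encodes a cytokine of the interleukin 6 family and lies on chromosome 11 from 4157560 to 4172517 (NCBIM37), had 9.73, 15 and 10.6 normalized counts in T0 and 26566, 26779 and 28044 in TPI, a log2 fold change of 11.15 (SE 0.30, adjusted p = 6.58e-14). Il2, the T cell growth factor, on chromosome 3 from 37019445 to 37024881, had 1.77, 7.07 and 4.79 in T0 and 6227, 8577 and 10172 in TPI (10.80, SE 0.44, adjusted p = 5.1e-11). Both genes were close to 0 in every T0 library and high in every TPI library. Nr4a3, an orphan nuclear receptor of the NR4A family, on chromosome 4 from 48058025 to 48099319, had 129, 185 and 161 in T0 and 139003, 132768 and 139378 in TPI (9.76, SE 0.21, adjusted p = 1.17e-17). The other large rises were in Il17a (9.62, SE 0.67), Il21 (9.17, SE 0.41), the zinc finger gene Plagl1 (9.13, SE 0.32) and Egr2 (8.88, SE 0.27). Another 5 genes had no more than 3 reads in each T0 library. Il13 and the chemokine gene Ccl20 had no T0 read at all, and against a floor of 3 reads per library, 2.73 normalized counts on average, Il13 was at least 54.6-fold higher. The same bound for Ccl20 was at least 18.8-fold. For the others the ratio of means is given with a 95% exact Poisson interval of the T0 reads, which covers counting error only. It was 508 (218 to 1560.0) for the MAPK phosphatase gene Dusp8 with 5 T0 reads in all, 557 (217 to 2040.0) for the AP-1 subunit gene Fosl1 with 4, and 822 (147 to 32500.0) for the secretogranin gene Scg2 with 1. Fosl1 overlaps Ccdc85b by 1162 bp on the opposite strand, Dusp8 shares 1186 bp with a further annotation of the same symbol, and Il21 overlaps Gm12534 by 35 bp. How the counting handled strand is not stated in the sources used here, so reads in such overlaps are of uncertain origin.

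By amount of added counts, immediate-early genes led. Nr4a1, which encodes another NR4A receptor and is widely used as a reporter of TCR signaling, went from 495, 495 and 337 to 177496, 175367 and 179226. Fosb went from 1215, 927 and 933 to 114653, 102802 and 100555, Egr1 from 467, 516 and 423 to 100064, 94703 and 92582, and Fos from 2096, 1901 and 1893 to 78727, 73182 and 71373. In all of these every TPI library was far above every T0 library. Nfkbid, an atypical IkB protein, Tnfaip3, a deubiquitinase that restrains NF-kB, and Ahnak, a giant scaffold protein, were the others in this group, with log2 fold changes of 6.87, 4.22 and 2.41. Per kilobase of exonic length, and among tested autosomal protein-coding genes only, Nr4a1 had rank 1 in TPI, having ranked 3394 in T0. On that scale Nfkbid moved from rank 2001 to 4, Fos from 421 to 5, Egr1 from 4012 to 6 and Nr4a3 from 8881 to 10, among transcripts such as Rps27 and Eef1a1 of the translation machinery.

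**Figure D3:**
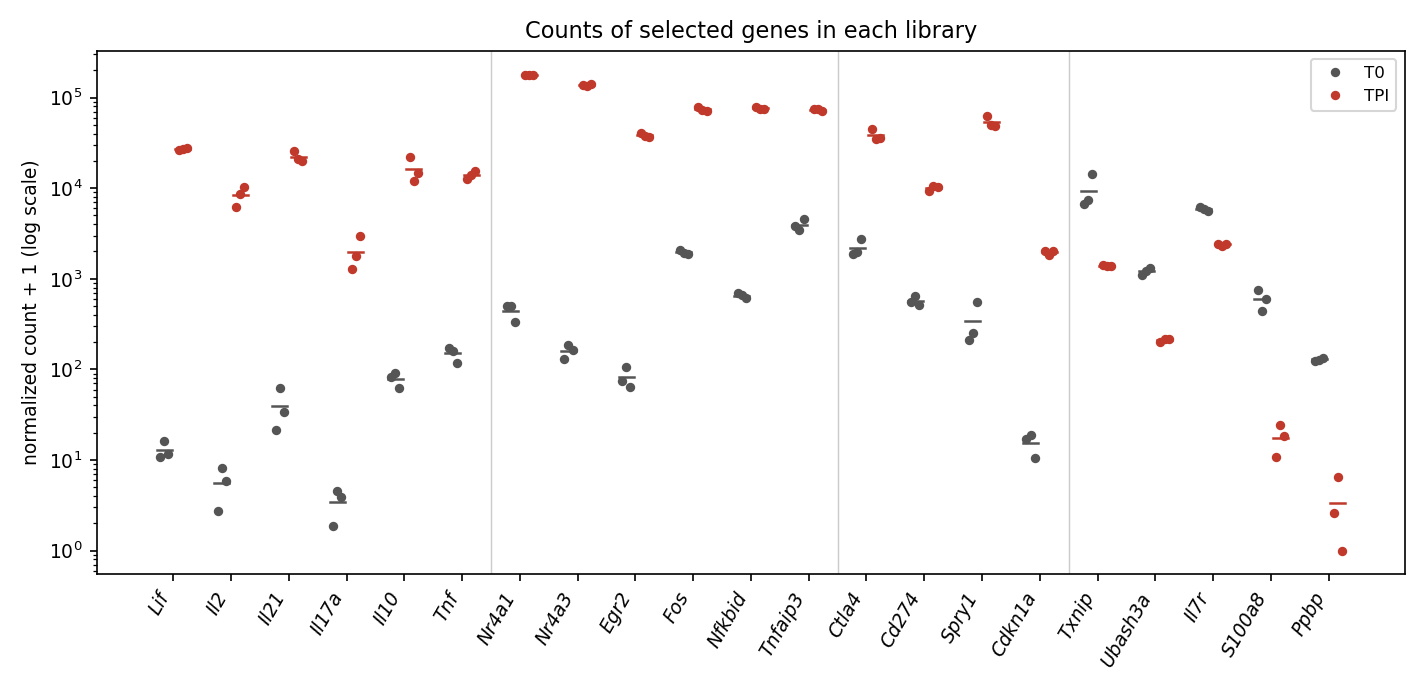
Normalized count plus 1 (log scale) of selected genes in each T0 and TPI library, 1 point per library and a bar at the group mean. The groups do not overlap in any of the genes shown, with TPI above T0 in the 16 genes on the left and below it in Txnip, Ubash3a, Il7r, S100a8 and Ppbp.

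Immediate-early factors rose almost without exception. Of 22 listed genes, 21 were called higher and none lower, with a median log2 fold change of 6.61. Only Srf, which binds the serum response element of many of the others, was not called (0.18). All FOS and JUN genes listed were called, with smaller changes in Jun (2.54), Junb (3.16) and Jund (2.47) than in Fosl2 (6.53) or Fosb (6.69). All 3 NR4A genes, all 4 EGR genes, Atf3 (8.06) and Myc (5.09) were called too. Part of 1 of the 5 promoter windows of Egr2 is printed because it holds a CArG box, the element bound by Srf, whose own transcript was not called. The window covers chr10:67537416-67537565, plus strand, in GRCm38.p6 of RefSeq, a later build than that of the counts, and its last base is the one before the start. Capitals mark the match, which begins 72 bases before the start:
Egr2: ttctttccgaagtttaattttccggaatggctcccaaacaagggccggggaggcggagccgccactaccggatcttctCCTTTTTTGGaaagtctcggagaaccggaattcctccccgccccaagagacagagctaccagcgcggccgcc

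The NF-kB genes rose together with their own inhibitors. Of 20 listed subunits, inhibitors and targets, 17 were called higher and none lower, with a median of 3.64. Rel, a subunit that is itself induced by activation, had 683, 637 and 532 normalized counts in T0 and 25041, 24501 and 21994 in TPI (5.27, SE 0.10, adjusted p = 4.49e-22). Nfkbia, the inhibitor that is degraded and resynthesised in each round of signaling, had 1367, 1371 and 1879 in T0 and 32404, 27700 and 26834 in TPI (4.24, SE 0.12). The groups did not overlap in either gene. The costimulatory molecule gene Cd83 had the second largest change of the list (6.28, SE 0.41), after Nfkbid. Bcl3 (0.59), Tnip1 (0.79) and the deubiquitinase Cyld (-0.74) were not called. The promoters of 3 of these genes are shown because each holds the NF-kB motif on either strand, marked in capitals. They were picked after the matches were seen, the one of Tnfaip3 from 2 windows, and each ends at the base before the start: Tnfaip3 at chr10:19015411-19015560, Nfkbia at chr12:55492648-55492797 and Rel at chr11:23770970-23771119, all on the minus strand of GRCm38.p6. The matches begin 125 and 12 bases before the start in Tnfaip3, 29 in Nfkbia, and 92 and 91 in Rel, where they overlap:
Tnfaip3: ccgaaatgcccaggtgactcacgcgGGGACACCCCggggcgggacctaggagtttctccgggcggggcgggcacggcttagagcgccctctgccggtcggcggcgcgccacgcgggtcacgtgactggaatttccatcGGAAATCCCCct
Nfkbia: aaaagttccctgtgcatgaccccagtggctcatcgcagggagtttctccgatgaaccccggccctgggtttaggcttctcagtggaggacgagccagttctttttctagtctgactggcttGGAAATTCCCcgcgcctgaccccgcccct
Rel: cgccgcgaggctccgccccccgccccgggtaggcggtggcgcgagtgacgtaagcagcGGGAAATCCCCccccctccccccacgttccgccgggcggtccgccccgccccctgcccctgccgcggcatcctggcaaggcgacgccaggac

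The NFAT and calcineurin list, whose proteins carry the calcium signal to the nucleus, was mixed. Of 15 tested, 4 were called higher and 1 lower, with a median of -0.40, against 13.3% higher and 13.7% lower over all genes, and on the adjusted p alone 4 were higher and 7 lower. Nfat5, the family member that responds to osmotic stress, had 4257, 4336 and 4763 in T0 and 26187, 23255 and 20943 in TPI (2.40, SE 0.09). Nfatc1, which has an inducible promoter, rose by a similar amount (2.29, SE 0.10), as did Rcan1 (2.19, SE 0.16), an inhibitor of calcineurin that is an NFAT target itself, and the scaffold gene Homer1 (2.38). Homer3 fell by 1.40, and the calcineurin subunit genes Ppp3ca, Ppp3cb, Ppp3cc and Ppp3r1 were between -0.89 and -0.12 and not called. Library totals as the scale made it 6 lower in this list.

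Cytokine genes of several helper lineages rose at once. Of 25 listed, 23 were tested, 17 were called higher and 1 lower. The median was 6.55, and 5.77 with the 6 genes of no more than 3 reads in each T0 library set to their fold over that floor. Il10, the cytokine by which tolerized Tg4 cells are known, had 81.4, 89.2 and 61.4 in T0 and 22147, 12099 and 14645 in TPI (7.71, SE 0.32, adjusted p = 5.35e-11). Il21, a follicular helper cytokine that promotes B cell responses, had 20.3, 61.8 and 32.6 in T0 and 25803, 21003 and 19746 in TPI. Ifng, the defining cytokine of Th1 cells, had 119, 128 and 112 in T0 and 11261, 6461 and 7066 in TPI (6.10, SE 0.49). In Il10 and in Ifng, TPI replicate 1 stood above the other TPI libraries, while the T0 libraries were far below all of them. Tnf, which encodes a major inflammatory cytokine, rose by 6.55 (SE 0.19). The Th17 genes Il17a and Il17f and the Th2 genes Il4 and Il13 were called too, and so was Csf2. The ratio of means was 357 (164 to 973) for Il17f, 56.6 (24.3 to 174) for Il4 and 368 (102 to 3030.0) for Csf2, with 6, 5 and 2 T0 reads in all. Il3, at least 9.33-fold higher, and Il5 stayed below a mean of 50. Ltb, which encodes the membrane anchor of lymphotoxin, was the only one called lower, from 2314, 2359 and 3087 to 618, 704 and 855 (-1.83, SE 0.14). The levels of the helper cytokines per library do not show whether the same cells or different cells made them. The promoters of Il2 and Il21 are shown because both genes were nearly silent in T0, with the NFAT core motif GGAAA, or its reverse complement, in capitals. The windows are chr3:37125955-37126104 and chr3:37232637-37232786, minus strand, GRCm38.p6. In Il2 the matches begin 137 and 47 bases before the start, and in Il21 118 and 74 bases:
Il2: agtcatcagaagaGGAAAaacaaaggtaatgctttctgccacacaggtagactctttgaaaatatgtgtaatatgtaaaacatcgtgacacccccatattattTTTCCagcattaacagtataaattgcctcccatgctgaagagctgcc
Il21: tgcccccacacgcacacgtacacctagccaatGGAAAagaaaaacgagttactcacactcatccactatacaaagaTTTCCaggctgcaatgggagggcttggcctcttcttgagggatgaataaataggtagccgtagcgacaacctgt

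Chemokine ligands followed the same direction. Of 17 tested, 8 were called higher and none lower, and 13 would have been called higher without the minimum mean of 50. The median was 4.76, and 3.34 with 5 genes of so few T0 reads set to their fold over the floor. Ccl4, which attracts monocytes and T cells, had 79.6, 75.1 and 85.4 in T0 and 10122, 8631 and 9578 in TPI (6.88, SE 0.28), and Xcl1, the ligand of a receptor on cross-presenting dendritic cells, went up by 6.63 (SE 0.53). Ccl5, a product of memory and cytotoxic cells, was not called (0.61).

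Receptors that inhibit T cells rose broadly. Of 17 co-inhibitory receptors and ligands, 11 were called higher and 3 lower, against 13.3% higher and 13.7% lower over all genes. The median was 2.36, and 3 lower of 17 was not far from the share over all genes. Ctla4, which competes with Cd28 for its ligands, had 1854, 1948 and 2754 in T0 and 44489, 34421 and 36040.0 in TPI (4.13, SE 0.21, adjusted p = 1.4e-10). Its rank per kilobase among autosomal protein-coding genes went from 346 to 18 in the library means. Cd274, which encodes the ligand of PD-1, had 556, 648 and 511 in T0 and 9394, 10616 and 10299 in TPI (4.14, SE 0.12). Changes were 4.04 for Havcr2, 3.09 for Pdcd1, 2.93 for Lag3 and 2.29 for Tigit, all of them receptors of exhausted or chronically stimulated T cells. Cd244 (-1.28), Cd200r1 (-1.48) and Ceacam1 (-2.12) fell. These genes are also expressed by natural killer or myeloid cells, and the part of such cells in the 3 falls was not tested. Cd200r1 also changed by -1.64 in NPI against N0. With the levels of neutrophil and erythroid markers as covariates, here called marker covariates, 7 of the list were called higher and 1 lower. The neutrophil markers themselves differ between T0 and TPI, so this fit may also take up part of the difference between the groups. Here and below, a lost call or turned sign in it cannot tell other cells from the treatment.

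Costimulatory genes rose beside the inhibitory ones. Of 23 costimulation and TNF family genes, 18 were called higher and 1 lower, with a median of 3.61. Cd69, an early activation antigen that retains cells in lymphoid tissue, went from 731, 682 and 933 to 50190.4, 49496 and 42410 (5.92, SE 0.17). Slamf1, a self-ligand of lymphocytes, rose by 5.31 (SE 0.11), the OX40 ligand gene Tnfsf4 by 5.50 (SE 0.27) and the OX40 gene Tnfrsf4 by 4.11, while Cd28 itself rose by 2.69. The death ligand gene Tnfsf10 fell by 1.37. Cytokine receptor chains were more mixed, with 8 higher and 4 lower of 22, against 13.3% higher and 13.7% lower over all genes. Il2ra, the inducible chain of the interleukin 2 receptor, had 695, 963 and 420.1 in T0 and 13076, 11383 and 11733 in TPI (4.12, SE 0.24). Il7r, the survival receptor of resting T cells, went the other way, from 6248, 5944 and 5619 to 2436, 2291 and 2441 (-1.31, SE 0.13). Il12rb1 (-1.58), Il27ra (-1.06) and Ifnar2 (-1.10) also fell. With library totals 2 receptor chains were called higher, and with marker covariates 5.

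Negative feedback genes of the MAPK pathway, which PMA feeds directly, were among the most changed. Of 16 phosphatase and Sprouty genes, 14 were called higher and 1 lower, with a median of 2.98. Spry1, an inhibitor of Ras signaling, had 210, 252 and 555 in T0 and 62086, 50200.1 and 47957 in TPI (7.31, SE 0.36), with T0 replicate 3 above the other T0 libraries and far below every TPI library. Dusp14, which dephosphorylates MAP kinases, had 7.08, 7.07 and 2.88 in T0 and 1344, 1127 and 1302 in TPI (7.75, SE 0.21). Dusp7 fell by 2.27 (SE 0.10), and its 3 TPI values lay between 181 and 201, below the lowest T0 value of 809. Of 17 SOCS and mRNA decay genes, 10 were called higher and none lower. These included Zfp36l1 (3.96, SE 0.09) and Zc3h12a (3.88, SE 0.12), whose products destroy cytokine transcripts, and the cytokine signaling inhibitors Socs1 (3.68) and Cish (3.75). Part of the promoter of Dusp8 is shown because it holds 2 copies of the cyclic AMP response element TGACGTCA, in capitals, which begin 107 and 63 bases before the start, at chr7:142095285-142095434, minus strand, GRCm38.p6. The promoter of Scg2, another of the genes with almost no reads in T0, has 1 copy, which begins 68 bases before the start, at chr1:79440027-79440176, minus strand:
Dusp8: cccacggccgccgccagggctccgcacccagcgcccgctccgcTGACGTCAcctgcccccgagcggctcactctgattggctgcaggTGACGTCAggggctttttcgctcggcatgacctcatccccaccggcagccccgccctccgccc
Scg2: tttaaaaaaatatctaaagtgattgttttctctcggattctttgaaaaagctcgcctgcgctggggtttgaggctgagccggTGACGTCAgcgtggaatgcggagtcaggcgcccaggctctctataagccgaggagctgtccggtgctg

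The signaling chain at the receptor itself changed in part. Of 23 proximal genes, 8 were called higher and 2 lower, with a median of 0.61. Zap70, the kinase recruited to the phosphorylated receptor, had 1949, 2098 and 2425 in T0 and 15210.5, 13599 and 15068 in TPI (2.76, SE 0.08). The adaptor gene Lcp2 rose by 2.52 (SE 0.09) and Bcl10, a part of the complex that leads to NF-kB, by 2.71 (SE 0.08). The receptor chains Cd3d, Cd3e, Cd3g and Cd247 were not called, with values from -0.99 to 0.21. The adaptor genes Trat1 (-1.96) and Grap2 (-1.28) fell. Of 25 genes that restrain the receptor, 7 were called higher and 3 lower, against 13.3% higher and 13.7% lower over all genes. Related genes went opposite ways here: the phosphatase gene Ubash3b had 1436, 1486 and 1812 in T0 and 6395, 5468 and 5955 in TPI (1.91, SE 0.14), while Ubash3a had 1088, 1216 and 1303 in T0 and 198, 217 and 218 in TPI (-2.51, SE 0.10). In the same way the adaptor gene Sla rose by 1.90 and Sla2 fell by 2.05. Ptpn22, a phosphatase of Lck, rose by 2.97 and the ubiquitin ligase gene Cblb, known from anergic cells, by 1.67 (SE 0.10). Library totals gave 4 higher and 9 lower proximal genes and 4 higher and 10 lower brakes, so that the balance within both lists, though not the direction of any called gene, depends on the scale. Without T0 replicate 2, 4 proximal genes were called lower.

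Transcription factors of helper lineages and of tolerance rose in 13 of 22 cases, and none fell. Irf4, a factor that scales with TCR signal strength, had 505, 483 and 447 in T0 and 59929, 58037 and 57672 in TPI (6.93, SE 0.16, adjusted p = 4.11e-19). Nfil3 (5.11, SE 0.23), Bhlhe40 (4.93, SE 0.24) and Prdm1 (2.46, SE 0.20), all regulators of Il10 in T cells, were called higher. Maf, an activator of Il10, had 2094, 3009 and 3239.8 in T0 and 4385, 2515 and 2885 in TPI. The groups overlapped, and the change of 0.23 (SE 0.30, adjusted p = 0.508) was negative under library totals, under marker covariates and without TPI replicate 1. Foxp3 (0.32), Ikzf2 (0.56) and Gata3 (0.67), which belong to regulatory and Th2 cells, were not called.

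Many growth genes rose, while genes of cell cycle entry mostly did not. Of 23 MYC targets and nutrient transporters, 14 were called higher and 1 lower, among them the ornithine decarboxylase gene Odc1, which went from 533, 450.4 and 517 to 10848, 9918 and 10606 (4.39, SE 0.11), the arginine transporter gene Slc7a1 (4.44, SE 0.09) and the lactate transporter gene Slc16a1 (3.65, SE 0.09). The glycolytic gene Eno1 fell by 1.27. Of 29 tested ribosome biogenesis genes, 19 were called higher and none lower, with a median of 1.26 and with the nucleolar gene Gnl3 highest (3.02, SE 0.09). Of 23 chaperone genes, 15 were called higher and none lower, with a median of 1.25, and Hspa5 of the endoplasmic reticulum had the largest amount, 24924 ± 596 normalized counts in TPI (SD, n = 3) against 4181 ± 353 in T0. Of 20 genes of cell cycle entry, only the inhibitor Cdkn1a was called higher, from 15.9, 17.7 and 9.59 to 2044, 1852 and 2047 (7.08, SE 0.24), and 5 were lower, including the cyclins Ccnd1 (-1.36), Ccnd3 (-1.28), Ccne1 (-1.78) and Ccnb1 (-1.93). Over all tested genes 13.3% were called higher and 13.7% lower. With library totals 7 MYC targets, 9 ribosome biogenesis genes and 7 chaperones were called higher and 13 cell cycle genes lower. With marker covariates 2 cell cycle genes were called lower, and these covariates turned the sign of Ccne1 and Ccnb1.

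Genes of resting T cells split. Of 26 quiescence and homing genes, 9 were called higher and 7 lower, with a median of -0.03. S1pr1, needed for exit from lymph nodes, had 5388, 5406 and 6372 in T0 and 1754, 1607 and 1707 in TPI (-1.76, SE 0.11). Every TPI library was below every T0 library. The antiproliferative gene Tob1 (2.67, SE 0.12), the chromatin organizer gene Satb1 (1.06, SE 0.09) and the homing receptor genes Ccr7 (1.85) and Cxcr5 (2.61) rose instead. Klf2, a main regulator of S1pr1, was at 0.00. Among 16 tested BCL2 family genes, the survival genes Bcl2l1 (3.11), Bcl2a1b (3.90) and Mcl1 (1.01) and the death genes Pmaip1 (2.77) and Bcl2l11 (2.36) were called higher, with Bcl2a1d, whose sequence is close to that of Bcl2a1b so that their reads may be shared. The death genes Bad (-1.98), Bmf (-1.72) and Bbc3 (-1.03) fell, and none of these falls was called with marker covariates. Of 23 clock, ETS and RUNX genes, 5 were higher, including Per1 (3.32, SE 0.18) and Per2 (3.48, SE 0.12), and 2 were lower, the clock outputs Dbp (-1.79) and Per3 (-1.34). The shares over all tested genes were 13.3% higher and 13.7% lower. Over all 20 pathway lists, 225 of 421 tested entries were called higher (53.4%, against 13.3% of all genes) and 33 lower (7.84%, against 13.7%). These lists hold well-known T cell activation genes and were drawn up with results of these data known, so the excess supports nothing by itself.

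**Figure D4:**
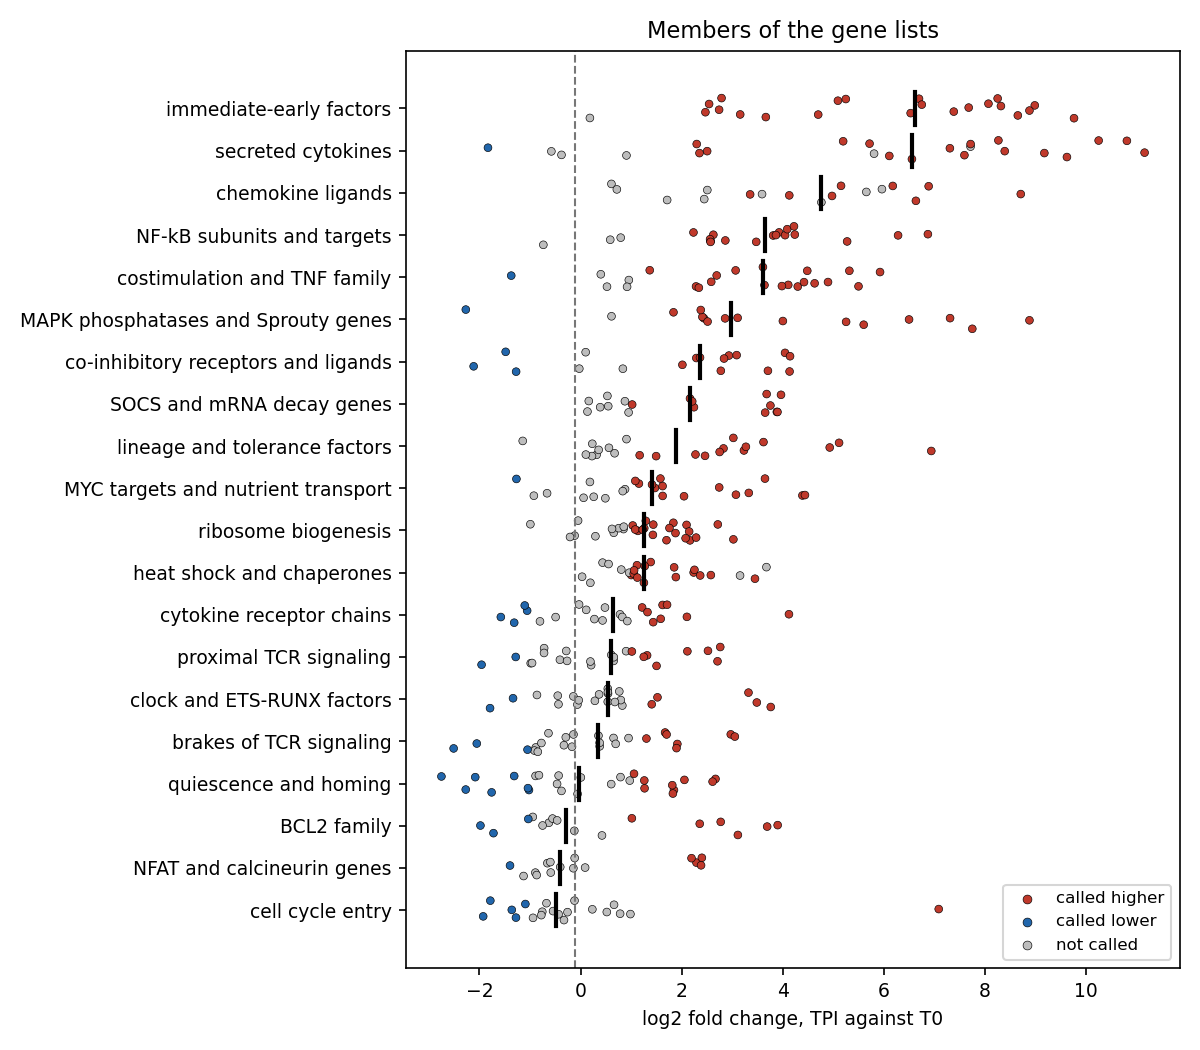
Log2 fold change of TPI against T0 for each tested gene of the 20 pathway lists (1 row per list, 1 point per gene), with the list median as a bar, called genes in red or blue and the median of all tested genes as a dashed line. Immediate-early factors and cytokines have medians of 6.61 and 6.55, while the medians of quiescence, BCL2 family, NFAT and cell cycle genes are below 0.

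The largest falls by fold were in genes of neutrophils and platelets. S100a8, a calcium-binding protein of neutrophils, had 760, 439.9 and 599 in T0 and 9.70, 23.0 and 17.4 in TPI (-5.19, SE 0.51). The iron-binding protein gene Lcn2 (-5.71, SE 0.48), the lactoferrin gene Ltf (-5.52, SE 0.69) and the platelet chemokine gene Ppbp (-5.91, SE 1.17) fell too. The neutrophil gene Retnlg had 101, 71.5 and 93.0 in T0 and 1 read in all in TPI, a ratio of 312 with an exact Poisson interval of 56.0 to 12300.0. Of 13 neutrophil markers, 9 were called lower and none higher, and their summed level was 2250 to 3660 normalized counts in T0 and 500.0 to 813 in TPI. Much of the TPI sum came from Mpo, at 384 in T0 and 388 in TPI (0.02), and Elane (-0.32), both made by neutrophil precursors. Of 12 macrophage markers, 3 were lower and none higher (1380 to 1760 in T0, 666 to 786 in TPI). Of 6 natural killer cell markers 2 were lower (669 to 903, then 245 to 475), of 6 platelet markers 2 were lower (369 to 375, then 99.5 to 109), and of 11 tested erythroid markers 1 was lower (442 to 2930, then 381 to 603). Of 9 B cell markers, Blk was higher (2.37) and Cd79b lower (-2.70), and the sum ranged from 570 to 3440 in T0 and from 1060 to 2330 in TPI. Of 8 dendritic cell markers, Zbtb46 was higher and Cd209a lower, and no CD8 T cell or plasma cell marker was called. For comparison, 13.3% of all tested genes were called higher and 13.7% lower, so 1 call among 8 to 11 markers was near that share. Of 10 CD4 T cell markers 3 were higher and none lower, with sums of 41800 to 47600 in T0 and 73200 to 76500 in TPI, which is far above any other marker sum, as the labelled cell type requires. In bulk libraries, fewer cells of a type and less RNA per cell cannot be told apart, and the part of most of these cells in the falls was not tested. With the marker covariates, into which the neutrophil and erythroid genes themselves enter, 107 of the 4665 called genes changed direction, among them Ltf and Ngp, and 1984 genes were called higher and 1573 lower.

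The largest falls by amount were much smaller in fold. Txnip, which restrains glucose uptake, had 6657, 7339 and 14241 in T0 and 1410, 1394 and 1387 in TPI (-2.75, SE 0.31, adjusted p = 3.58e-06). T0 replicate 3 stood well above the other T0 libraries, and the TPI libraries were almost equal. Ms4a6b (-1.76, SE 0.10) and Ms4a4b (-1.43, SE 0.11), membrane proteins of T cells, the adenylate cyclase gene Adcy7 (-1.38, SE 0.10), the nuclear body gene Sp100 (-1.84, SE 0.11), the histone methyltransferase gene Nsd1 (-1.08, SE 0.08), the kinase gene Pik3cd (-1.09, SE 0.08) and Kbtbd11 (-1.0, SE 0.12) followed. Among the largest falls by fold outside the granule genes were 3 little-studied genes, Gm4787 (-4.42, SE 0.31), Gm4956 (-4.42) and the zinc finger gene Zfp128, which had 69.0, 76.0 and 67.1 in T0 and 5.66, 4.39 and 1.45 in TPI (-4.21, SE 0.34).

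Naive cells given the same stimulus are a point of comparison, in libraries that the comparison of TPI with T0 does not share. In NPI against N0, 1736 genes were called higher (10.1%) and 1771 lower (10.3%). Of the 2297 genes higher in TPI, 1487 were also higher in NPI, which is 64.7% of the first list and 85.7% of the second, and 1466 genes were lower in both (61.9% and 82.8%). One gene was called in each of the opposite combinations. Over the 11051 genes with a mean above 50 in TPI or T0, the log2 fold changes of both cell states had an r of 0.916, which is across genes and carries no test. Lif rose by 11.15 in tolerized and by 10.47 (SE 0.30) in naive cells. Il10 had 5 reads in all in N0, where no library had more than 3, and the ratio of NPI to N0 means was 313 (95% exact Poisson interval 134 to 965). The NPI mean of Il10 was 526 ± 59.8 (SD, n = 3) and the TPI mean 16297 ± 5224.

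The difference between both responses was tested as an interaction. It was called positive in 301 genes (1.75%) and negative in 253 (1.47%). Of the genes higher in TPI, 245 had a larger change in tolerized cells and 42 a smaller one. Of the genes lower in TPI, 134 had a more negative change than in naive cells and 4 a less negative one. A further 52 positive and 77 negative differences were in genes not called in TPI against T0. Nr4a3 differed by 2.02 (SE 0.22, adjusted p = 4.02e-06), with 59545 ± 7770 normalized counts in NPI (SD, n = 3) against 137050 ± 3713 in TPI, although its N0 and T0 means were 279 and 158. Egr2 differed by 1.53 (SE 0.33) and Nr4a1 by 1.10 (SE 0.35). For Nr4a1 the N0 mean of 1044 was above the T0 mean of 442, while the means of 194600 in NPI and 177363 in TPI were closer. Fos went the other way, by -1.17 (SE 0.37), with 112942 in NPI and 74427 in TPI. Zap70, Lcp2, Bcl10, Nfat5, Slamf1 and the amino acid transporter gene Slc7a1 all rose further in tolerized cells, by 1.04 to 1.73. Among the largest differences upward were those of Tex15 (2.59, SE 0.47), Mkrn2 (2.42, SE 0.14), Zfp703 (2.38, SE 0.33), Stk38l (2.31, SE 0.20) and Dlg2 (2.26, SE 0.65). Mkrn2 lies on chromosome 6 from 115551949 to 115568688, and part of it overlaps a further annotation, so some of its reads are of uncertain origin. It had means of 304 in T0 and 2321 in TPI, against 364 in N0 and 518 in NPI. The largest differences downward were in the neutrophil genes Cd177 (-2.72) and Hp (-2.22), in Ccdc164 (-2.52), in the sphingomyelin synthase gene Sgms2 (-2.35), in Alox5 (-2.10), which makes leukotrienes in myeloid cells, and in the p53 target Bbc3. Bbc3 had 209 and 102 in T0 and TPI and 84.2 and 184.9 in N0 and NPI (-2.17, SE 0.24). Of 23 tested cytokine genes, 0 were called with a positive difference and 1 with a negative one. The differences of Il2 (1.84, SE 1.09), Il21 (1.68, SE 1.07) and Il10 (-0.48, SE 1.16) were not called. The N0 libraries held 29 to 34 reads of Y-linked genes and the NPI libraries 5624 to 7873, so in the naive arm sex and PI cannot be told apart. Library totals changed the split of the difference to 154 positive and 609 negative genes.

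**Figure D5:**
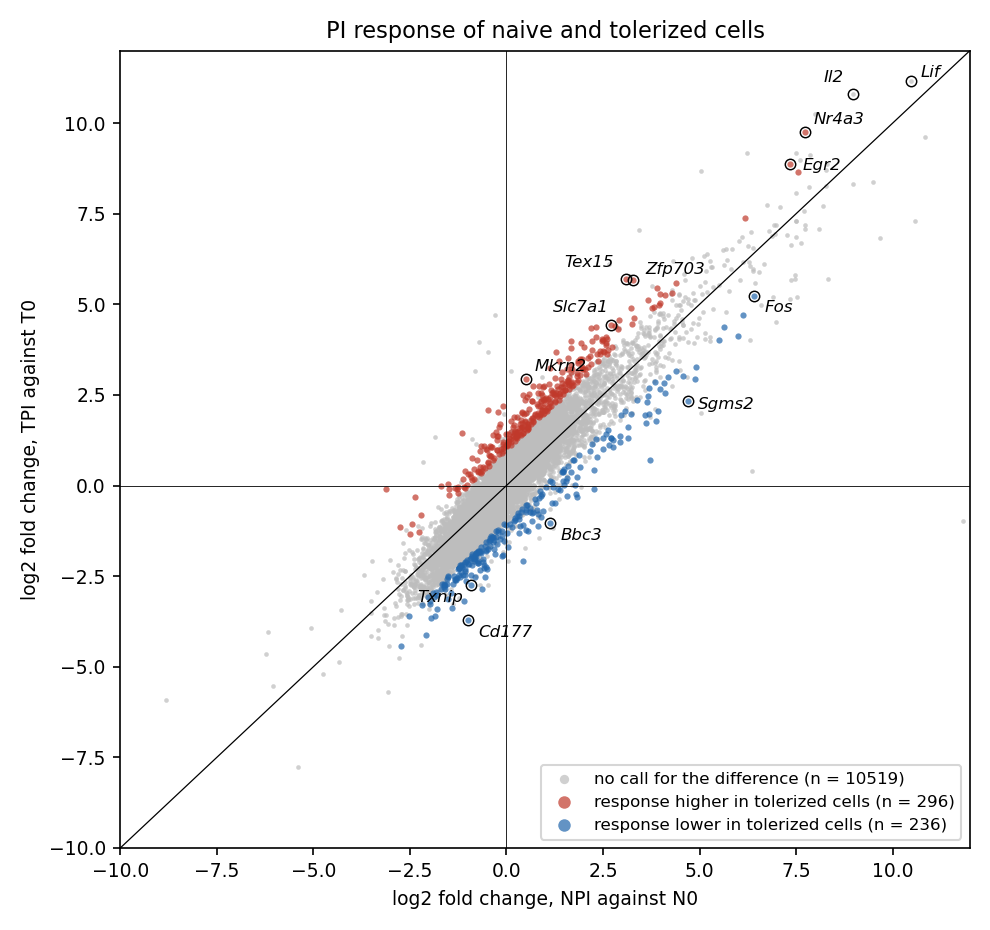
Log2 fold change in naive cells (NPI against N0, x axis) and in tolerized cells (TPI against T0, y axis) for 11051 genes with a mean above 50 in TPI or T0. The change was called more positive in tolerized cells in the 296 red genes and more negative in the 236 blue ones. The line marks equal changes. Most points lie along it, and Mkrn2, Zfp703 and Tex15 lie above it and Bbc3 and Cd177 below.

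Peptide given to the mouse activates tolerized cells through the receptor, and TPI was compared with TAg at the same 2 h. This comparison shares its TPI libraries with the one above, so the values stand side by side and their overlap is not a result. It called 2141 genes higher (12.4%) and 2262 lower (13.1%) in TPI than in TAg. Immediate-early factors were higher in 20 of 22 cases, with Nr4a1 at 8211 ± 1379 in TAg and 177363 ± 1933 in TPI, and Fos at 1415 ± 115 in TAg, near its T0 level of 1963 ± 115. Of 23 cytokine genes 15 were higher, and Il10 had 3429 ± 315 in TAg and 16297 ± 5224 in TPI (2.25, SE 0.23, adjusted p = 1.22e-06). Ribosome biogenesis genes were reversed in this comparison, with none higher and 24 of 29 lower in TPI than in TAg, for example Rrp12 at 4465 ± 95.9 in TAg and 2545 ± 116 in TPI. Of 23 MYC targets and transporters 5 were higher and 13 lower. Nfat5 (0.17, SE 0.09), Per2 (0.08, SE 0.10) and Ubash3b (0.13, SE 0.13) had levels in TPI that were not called different from those in TAg. Maf was lower in TPI, by -1.67 (SE 0.30, adjusted p = 0.0003), at 3262 ± 991 against 10356 ± 2963. Large rises of TPI over TAg were also found in Ramp3 (7.79, SE 0.26), a subunit of the adrenomedullin receptor, and Plau (6.83, SE 0.47), the urokinase gene. The glutaminase gene Gls2 and the arginase gene Arg1 had 3 and 2 TAg reads in all, and ratios of 137 (47.0 to 666) and 100 (27.7 to 827). Neutrophil markers were lower in TPI than in TAg in 10 of 13 cases and higher in none, and their part in the other falls was not tested. The 6 largest falls of TPI below TAg among genes also called in TPI against T0 were the granule and platelet genes Retnlg, Ppbp (-6.10), Mmp8 (-6.06), Lcn2 (-5.84) and S100a8 (-5.72), and Dctd of nucleotide metabolism (-5.72, SE 0.18). Retnlg had a ratio of TAg to TPI of 1050.0 (189 to 41600.0) on 1 TPI read. Of the TAg libraries, 1 held Y-linked reads in number and 2 held Xist reads. Culture, route and stimulus differ together between these groups and cannot be told apart.

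Some features that the fold changes did not use were described for the called genes. By annotation class, 14.3% of 13856 tested protein-coding genes were called higher and 16.3% lower. Small nucleolar RNAs, which guide the modification of ribosomal RNA and mostly lie in introns of other genes, were higher in 100 of 272 cases (36.8%) and lower in none. The count was 61 under library totals and 41 with marker covariates. Of these 100, 86 lie inside a protein-coding gene, and for 42 of the 86 that gene was called higher too. Of 155 small nucleolar RNAs inside a protein-coding gene that were not called, 34 had a host called higher. Several of them can share a host. Median genomic length was 23.3 kb for protein-coding genes called higher, 19.6 kb for those called lower and 21.8 kb for all tested, and median exonic length was 3.93, 3.46 and 3.57 kb.

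Promoter windows of RefSeq, from 250 bases before to 50 after the start, were matched by symbol for 9319 of 13363 tested genes (11920 windows), and both strands were searched. The AP-1 motif TGANTCA was found in 5.43% of all windows, in 6.28% of the windows of genes called higher (95% exact interval 5.21 to 7.49) and in 4.52% of those called lower (3.63 to 5.55), and in 9.42% (7.36 to 11.8) of the windows of genes that rose at least 4-fold. The cyclic AMP response element TGACGTCA was found in 2.94%, 4.91% and 2.52%, and in 5.56% for a rise of at least 4-fold. The NF-kB motif was in 10.6% of all windows, 12.9% (11.4 to 14.5) for genes called higher, 8.67% (7.44 to 10) for genes called lower and 15.4% (12.8 to 18.3) for a rise of at least 4-fold. The NFAT core GGAAA, which is short, was in 58.9% of all windows, 59.0% of the higher ones and 61.7% of the lower ones, so its presence in the Il2 and Il21 windows above is shared by most genes. The EGR motif GCGTGGGCG was in 1.14%, 1.69% and 0.998%, and the CArG box in 1.34%, 1.53% and 0.946%. A match is a description of letters and not of a bound site, the intervals cover counting error only and treat windows of the same gene as separate, and overlapping matches of different motifs were each counted.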

How the data were processed

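Ribosomal RNA was depleted from total RNA of enriched splenic CD4+ T cells, and paired-end libraries were sequenced. The raw counts deposited by the authors are reads per Ensembl gene, neither normalized nor pooled, after alignment to mm9 (NCBIM37), and the submitters' processing notes list TopHat2 2.1.1 and HTSeq 0.9.1. The strand setting is not given in the sources used here. Symbols and positions came from an NCBIM37 annotation that matched 37205 of 37991 genes. Library depth is given at the start of the results.

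Samples were grouped by their treatment labels. Genes with a mean of at least 3 normalized counts in 1 or more groups were tested. Counts of all 18 libraries were scaled by TMM and fitted with 1 mean per group by edgeR 4.0.16 (R 4.3.3), and contrasts were tested with its robust quasi-likelihood F test, two-sided, with Benjamini-Hochberg adjustment over all 17240 tested genes. The fold and count limits follow the study, which also required a gene to be significant in both DESeq2 and edgeR. With both tests required, 2386 genes were called higher and 2264 lower in TPI against T0. The interaction is TPI against T0 minus NPI against N0. The labels give 3 biological replicates per group. Among autosomal protein-coding genes called in TPI against T0, the rule named the 12 largest rises and falls by fold and 8 by count whose replicates did not overlap, and the 6 largest each way in the interaction and against TAg. From each list it took up to 3 called members that rose most and 2 that fell most, and the genes named in the study beside its RNA-seq data. Genes named beyond it, mostly list members given by their value, were chosen after their values were seen. Some genes that the rule names are not reported here. The members, lists and rules were chosen with earlier results of these data known. Marker covariates are the mean log2 CPM of neutrophil and of erythroid markers. Alternatives were DESeq2 1.42.0, its size factors, library totals, thinned counts, other filters, only the groups compared, the replicate block, marker covariates and each library left out in turn. In simulated counts, 198 of 200 genes changed by a log2 fold of 2 were recovered in TPI against T0, of 16534 genes, with 0 false calls. The simulation gave all genes the same dispersion and changed few genes, all with a mean above 50, with as many rises as falls. It therefore checks the code and does not give the rate of false calls in these data.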

Additional observations from a re-analysis of the deposited data

Results flagged for a closer look

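The PI response differed between tolerized and naive cells in the genes below by the interaction test of edgeR (adjusted p under 0.05 and a log2 difference of at least 1). Values are the log2 change in TPI against T0 minus that in NPI against N0. All of these compare arms in which the sex of the mice also differed between N0 and NPI, and the part of sex in them was not tested.

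Larger changes in tolerized cells were found for the factors Nr4a3 (2.02), Egr2 (1.53), Nr4a1 (1.10), Nfat5 (1.33), Bhlhe40 (1.11) and Per2 (1.52), and for the signaling and surface genes Zap70 (1.14), Lcp2 (1.29), Bcl10 (1.25), Ubash3b (1.11), Slamf1 (1.04), Slc7a1 (1.73) and the X-linked Cd40lg (1.32). Among the largest were Tex15 (2.59), Mkrn2 (2.42), Zfp703 (2.38), Stk38l (2.31) and Dlg2 (2.26). Of these, Tex15 and Dlg2 had T0 means of 12.5 and 16.9 normalized counts, and Dlg2 was at -0.69 in TPI against T0 with marker covariates. The differences of Cd40lg and Nr4a1 lie largely in the untreated level. Cd40lg had means of 406 in T0 and 969 in N0, but 10033 in TPI and 9577 in NPI. Nr4a1 had 442 in T0 and 1044 in N0, but 177363 in TPI and 194600 in NPI.

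More negative changes in tolerized cells were found for Fos (-1.17), Gpr183 (-1.01) and Sgms2 (-2.35), which rose in both cell states. The difference of Sgms2 lies largely in the untreated level. It had means of 31.6 in T0 and 5.34 in N0, but 162 in TPI and 142 in NPI. Txnip (-1.84), Gm4956 (-1.67), Ccnb1 (-1.84) and Ccne1 (-1.25) fell further in tolerized cells. Bbc3 (-2.17) fell in tolerized cells while its level was higher in NPI than in N0. With marker covariates the changes in TPI against T0 turned to 1.45 for Ccnb1, 0.32 for Ccne1 and 0.28 for Bbc3. Cd177 (-2.72), Hp (-2.22), Alox5 (-2.10) and Ccdc164 (-2.52) had N0 means of 6.7 to 21.2 normalized counts, and the first 3 are genes of neutrophils or other myeloid cells, whose markers were lower in TPI.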

How the results depend on the processing

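The scale of the libraries moved the counts of calls. With library totals, 1025 genes were called higher and 5278 lower in TPI against T0 (16.3% of calls higher, 49.2% with TMM), 154 and 609 in the interaction (20.2% against 54.3%), and 1207 and 3639 in TPI against TAg (24.9% against 48.6%). With marker covariates 1573 genes were called lower in TPI against T0, 1327 of them among the 2368, and 150 negative in the interaction, 74 of them among the 253, and 107 of the 4665 called genes changed direction. Without the minimum mean of 50, 3746 were lower. In the interaction with only the 4 groups compared, 236 were positive and 372 negative. DESeq2 called 2391 and 2264 in TPI against T0, and thinned counts 2065 and 2378. Leaving out 1 library gave 2159 to 2320 higher and 2280 to 2489 lower, 263 to 368 and 196 to 282 in the interaction, 2090 to 2169 and 2225 to 2299 against TAg, and a share of reads in the higher genes of 50.4% to 55.2%. Marker covariates reversed Ltf (0.63), Ngp (0.59), Ceacam1 (0.28), Ccnb1 (1.45), Ccne1 (0.32), Dlg2 (-0.69), Bbc3 (0.28) and Maf (-0.22). The log2 fold change of Maf was also reversed by library totals (-0.57), and leaving out 1 library gave a log2 fold change of Maf from -0.0185 to 0.39. The cause was not tested. Of 1960 values of named genes under alternatives, 1922 kept direction and call, and 28 lost the call, all with marker covariates.

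Among promoter and length values, a fold of at least 4 gave 9.42% for AP-1, 61.5% for NFAT and 15.4% for NF-kB in higher genes, 0.465% for EGR in lower genes and a median length of 16.7 kb in lower genes. Only the bases before the start gave 53.8% for NFAT and 11.2% for NF-kB in higher genes, and 56.9% and 7.36% in lower genes.

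The replicate block gave 2297 and 2365 calls in TPI against T0, 296 and 249 in the interaction and 2136 and 2262 against TAg. Same-numbered TPI and T0 libraries correlated in their deviations at -0.106, 0.013 and -0.083, so the numbers were not taken as pairs.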
